A study of Mus musculus with 12 samples.

Results

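CpG sites preceded by C and followed by G, and thus lying within CCGG, were examined in mouse embryonic stem (ES) cells that carried 1 of 5 human de novo DNA methyltransferases. Members were all autosomal CpG sites with this core in the GRCm38 (mm10) sequence and with at most 5 CpG sites, itself included, in the window reaching 100 bp to either side. The rule used sequence only, and it gave 1049259 sites of the 21867550 CpG sites of the deposited counts, which are 69.1% of the 1519513 autosomal CCGG sites and 6.66% of the 15761900 autosomal CpG sites of this low density. CCGG is palindromic, so that on both strands the CpG is followed by G.

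All 12 lines were derived from ES cells lacking Dnmt1, Dnmt3a and Dnmt3b (TKO), in which methylation has to come from the enzyme introduced with the pPyCAGIZ vector. The groups, with 2 biological replicates each, expressed wild-type (WT) DNMT3A, WT DNMT3B, or DNMT3B with the mutation N656I, K777A or N779A, and 4 lines of WT DNMT3B fell into 2 sets by the start of their library names. Set a here is the pair compared with DNMT3A and N656I, and set b the pair named like K777A and N779A and compared with them. Transfected cells were selected with 50 µg/ml Zeocin for 10 days per the labels (the methods give a longer selection) and kept in 25 µg/ml, and methylation was read by enhanced reduced representation bisulfite sequencing (eRRBS). The 2 lines of a group were derived independently of each other. Whether a library came from a pool of cells or from a clonal line is not given in the sources used here, and no library of empty-vector TKO cells was analysed here.

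DNMT3A and DNMT3B place methyl groups on cytosines that carry none on either strand, mostly at CpG, and each enzyme favours some bases around the CpG over others. Both enzymes contact the DNA through a target recognition domain and a catalytic loop. These cells lack DNMT1, which copies methylation onto the new strand after replication, and how the pattern is kept over divisions was not tested. CCGG is also the recognition sequence of MspI, which cuts after the outer C whether or not the CpG is methylated, and MspI was used together with BfaI and MseI to make the eRRBS fragments.

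The 8 sites below show what single members look like, with the CCGG in capitals and 13 bases of the GRCm38 forward strand on either side. The first 4 are, for each palindromic NCCGGN hexamer, the site whose shallowest line was deepest, and the others are the sites with the largest separated differences between set b and K777A (5 and 6) and between DNMT3A and set a (7 and 8).
Site 1, chr11:3191363-3191392, ACCGGT: atggtgccacacaCCGGtaatcccagagac
Site 2, chr8:20812379-20812408, CCCGGG: tgggagccacaccCCGGggaagcaatcagc
Site 3, chr11:3127200-3127229, GCCGGC: cccactcagcctgCCGGcaggtgggagaca
Site 4, chr10:58225525-58225554, TCCGGA: cagttcatcccatCCGGattcaatcagctt
Site 5, chr1:108356769-108356798: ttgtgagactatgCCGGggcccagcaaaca
Site 6, chr13:66671622-66671651: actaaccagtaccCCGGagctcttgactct
Site 7, chr11:50112765-50112794: ctactgtgcactgCCGGgacattcaaggtg
Site 8, chr11:60731885-60731914: tcttgggtaacttCCGGgaagaggagattg

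In the GENCODE M21 annotation, site 1 lies in introns of Drg1 and Sfi1, site 3 in an exon of the pseudogene Pisd-ps1, site 6 in an intron of the annotated pseudogene Zfp640, and site 8 in a coding exon of Mief2, whose protein acts in mitochondrial division. Sites 2, 4, 5 and 7 are intergenic. The printed sequence occurs once in the assembled chromosomes for sites 1, 3, 7 and 8, but 4 times for site 2, 3 times for site 4, 2532 times for site 5 and 18622 times for site 6. Sites 5 and 6 are soft-masked repeats, and reads from other copies could have been placed there, which was not tested.

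Reads on CpG sites numbered 16224222 to 36029921 per line. The members received between 888769 and 2219168 reads per line, on 30.4% to 53.1% of the members in 9 lines, on 22.3% and 29.2% in set b, and on 6.95% in set a replicate 2. That library stood apart, with 12.6 reads per covered member against 2.32 to 4.51 in the other 11 lines. At its members with at least 10 reads, 66.6% had no methylated read and 22.8% had only methylated reads, against 33.6% and 3.56% in set a replicate 1. Members with only methylated reads also made up 16.99% in DNMT3A replicate 2, against 6.96% in replicate 1. In set b they made up 10.2% in replicate 1 and 3.22% in replicate 2. In every line but these 3 high ones the share was at most 6.96%. The differences in level and the line-centred counts of contexts and hexamers against set a, and the context counts within the core, are also given without set a replicate 2. No read was found in any line at 224838 members, 166708 had at least 10 reads in at least 1 line, and 16 had at least 10 reads in all 12, so lines were compared through averages over their own sites. In 11 lines the members were covered more often than other low-density sites (41.9% against 28.4% in DNMT3A replicate 1), and in N779A replicate 1 less often (30.4% against 32.2%).

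The methylation level of a line was the mean of methylated reads over all reads at its members with at least 10 reads. No correction was made for unmethylated cytosines that escaped bisulfite conversion, and their part in the low K777A values was not tested. Values were 44.3% and 44.0% for DNMT3A, 29.0% and 25.9% in set a, 30.6% and 23.7% in N656I, 23.9% and 22.0% in set b, 2.31% and 2.08% in K777A and 19.3% and 22.4% in N779A. DNMT3A lines were highest and K777A lines lowest, and the lines of N656I enclosed those of set a. At the other low-density sites of the same lines the levels were 40.9% and 40.8% (DNMT3A), 17.9% and 15.9% (set a), 15.1% and 11.5% (N656I), 15.3% and 14.1% (set b), 7.97% and 9.26% (K777A) and 12.6% and 14.0% (N779A). CCGG thus lay above the other sites in 10 lines, by 3.19 to 15.5 percentage points, and below them in both K777A lines, with differences of −5.66 and −7.17 percentage points.

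**Figure D1:**
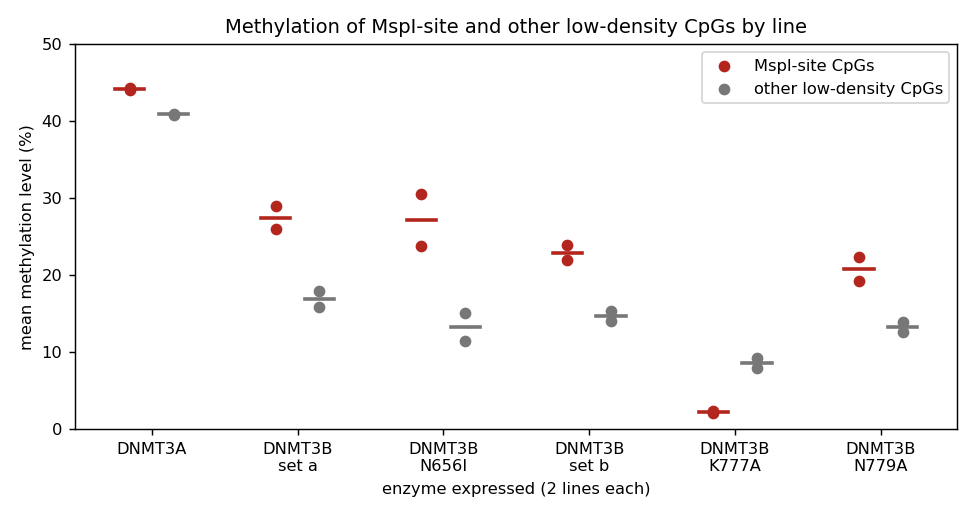
Mean methylation level (%) of members (red) and of other low-density CpG sites (grey) in each of the 12 lines, with sites of at least 10 reads. Each point is a line and each bar the mean of 2 lines. In K777A the red points (2.31% and 2.08%) lie under the grey ones, and in all other groups above them.

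The comparison of K777A with set b asks how exchanging the mutated lysine for alanine bears on CCGG. The level was 2.20% ± 0.161 in K777A and 22.9% ± 1.34 in set b (SD, n = 2), a 10.4-fold difference of 20.7 percentage points that was larger than the spread between lines. It rested on 1932 and 13878 members in the K777A lines and on 14578 and 6860 in the set b lines. Only 49 members had at least 10 reads in all 4 lines. To take out the overall methylation of a line, the log2 odds of the other sites were subtracted from the log2 odds of CCGG. This relative level was −2.06 ± 0.28 in K777A and 0.79 ± 0.01 in set b (SD, n = 2). Both K777A lines lay below both set b lines in both measures (two-sided exact permutation test, p = 0.33, which is the lowest value possible for 2 lines against 2).

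DNMT3A differed from set a in the opposite directions in level and relative level. Its level was 44.2% ± 0.188 against 27.4% ± 2.13 (SD, n = 2), which is 16.7 percentage points higher (15.2 without set a replicate 2), while its relative level was 0.19 ± 0.01 against 0.90 ± 0.01, a difference of −0.70 (−0.71 without set a replicate 2). N656I and set a had close levels of 27.2% ± 4.83 and 27.4% ± 2.13, a difference of −0.290 percentage points (−1.80 without set a replicate 2) within the spread between lines, and the relative level was 1.29 ± 0.04 in N656I (SD, n = 2), a difference of 0.39 (0.38 without set a replicate 2). In relative level both N656I lines lay above both set a lines, and both DNMT3A lines below them (two-sided exact permutation test, p = 0.33 each).

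The level of N779A, 20.8% ± 2.20, and that of set b, 22.9% ± 1.34 (SD, n = 2), overlapped, as did their relative levels of 0.78 ± 0.07 and 0.79 ± 0.01. Neither difference was larger than that among replicates (two-sided exact permutation test, p = 0.67 and p = 1). Under the alternatives run, the difference of N779A from set b lay between −6.63 and 2.53 percentage points, and that in relative level between −0.12 and 0.37. Set b differed from set a by −4.53 percentage points in level and by −0.11 in relative level (−6.04 and −0.12 without set a replicate 2), and the lines did not overlap in either measure (two-sided exact permutation test, p = 0.33). At the 45 members with at least 10 reads in all 4 of these WT lines the differences were −11.2 points and −0.44, and with every covered site the relative difference was 0.017, so that its size depended on the sites used. For N656I against set a the relative difference lay between 0.36 and 0.50 under all alternatives run, so the difference between the WT sets at shared sites was as large, while those of DNMT3A against set a (−0.76 to −0.59) and K777A against set b (−3.05 to −2.33) exceeded it.

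Among the 10 cores formed by the bases next to the CpG, merged over strands, CCGG ranked differently between enzymes. In set a, N656I and N779A it was the highest in both lines, in set b the second after TCGA, in DNMT3A the third after GCGC and ACGC, and in both K777A lines the lowest. CCGG and TCGA were close in both WT sets. They were at 29.0% and 25.9% against 28.5% and 25.0% in set a, and at 23.9% and 22.0% against 24.2% and 22.3% in set b. Of the other palindromic cores, ACGT reached 13.6% and 16.3%, TCGA 8.83% and 9.59%, and GCGC 6.84% and 6.78% in the K777A lines. In the N656I lines these cores were at 9.20% and 6.53% (ACGT), 25.2% and 19.2% (TCGA) and 4.53% and 3.19% (GCGC). Of the cores that share 1 side with CCGG, CCGA was at 4.02% and 4.37% in K777A and at 28.5% and 22.1% in N656I. CCGC was at 4.17% and 4.79% in K777A and at 9.53% and 6.95% in N656I. ACGG, which reads CCGT on the other strand, was at 7.09% and 7.79% in K777A and at 17.7% and 13.7% in N656I. These ranks are a description, and no test between cores was made.

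Members were then grouped by the bases 2 positions from the CpG into 10 NCCGGN hexamers, with each hexamer merged with its reverse complement. Here every covered site was used, which left at least 3109 sites per hexamer and line. TCCGGA was methylated to 52.3% and 52.1% in the DNMT3A lines, 27.8% and 24.7% in set a, 19.7% and 14.7% in N656I, 22.6% and 20.7% in set b, 4.26% and 4.51% in K777A and 20.9% and 24.2% in N779A. It was the highest hexamer in both DNMT3A and both K777A lines. In K777A its level was 2.13 ± 0.0678 times that of all members, in DNMT3A 1.19 times, and in N656I 0.655 ± 0.0268 times (SD, n = 2).

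CCCGGG was at 38.4% and 38.7% in DNMT3A, 35.7% and 32.9% in set a, 38.2% and 29.8% in N656I, 30.9% and 28.7% in set b, 1.67% and 1.54% in K777A and 23.3% and 27.3% in N779A. It was the highest hexamer in all 4 WT DNMT3B lines and both N779A lines, and the lowest in both DNMT3A lines. In DNMT3A the margin to ACCGGT (38.9% and 39.0%) and ACCGGG (39.0% and 38.8%) was small. At sites with 10 reads, ACCGGT (39.2%) was below CCCGGG (39.3%) in DNMT3A replicate 1, and ACCGGG (38.7%) below CCCGGG (39.9%) in replicate 2. GCCGGC was at 47.5% and 48.3% in DNMT3A, 30.2% and 29.3% in set a, 40.2% and 31.7% in N656I, 26.4% and 23.8% in set b, 0.984% and 0.976% in K777A and 13.4% and 16.1% in N779A. It was highest in both N656I lines and lowest in both N779A lines.

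ACCGGT was at 38.9% and 39.0% in DNMT3A, 17.9% and 17.1% in set a, 15.7% and 11.2% in N656I, 14.5% and 13.2% in set b, 0.978% and 0.875% in K777A and 14.9% and 18.7% in N779A. It was the lowest hexamer in the WT DNMT3B, N656I and K777A lines. The highest hexamer exceeded the lowest by 1.36 and 1.35 times in DNMT3A, 2.00 and 1.92 times in set a, 2.57 and 2.82 times in N656I, 2.12 and 2.17 times in set b, 4.35 and 5.16 times in K777A and 1.73 and 1.70 times in N779A.

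The other 6 hexamers have different bases on either side. In K777A those with A after the CCGG stood above those with other bases there: GCCGGA was at 2.97% ± 0.155, CCCGGA at 2.58% ± 0.0392 and ACCGGA at 2.16% ± 0.0789, whereas CCCGGC was at 1.80%, ACCGGG at 1.41% ± 0.0206 and ACCGGC at 1.05% ± 0.0102 (SD, n = 2). At sites with 10 reads this did not hold in K777A replicate 1, where ACCGGG was at 2.54% and ACCGGA at 2.07%. In set b the order was different, with CCCGGC at 26.8% ± 1.33, CCCGGA at 24.8% ± 1.41, GCCGGA at 22.9% ± 1.12, ACCGGC at 21.0% ± 1.42, ACCGGG at 20.6% ± 1.00 and ACCGGA at 16.9% ± 0.624. Both set b lines held this order at every covered site, with ACCGGC and ACCGGG close (22.0% against 21.4%, and 19.96% against 19.94%). At sites with 10 reads ACCGGG was above ACCGGC in both lines (22.1% against 21.3%, and 20.8% against 19.6%). CCCGGA (27.1%) was then above CCCGGC (26.8%) in replicate 1, and ACCGGG above GCCGGA (19.7%) in replicate 2. In DNMT3A these hexamers lay between 38.9% ± 0.132 (ACCGGG) and 46.6% ± 0.242 (GCCGGA), in N656I between 17.5% ± 3.10 (ACCGGA) and 35.1% ± 5.39 (CCCGGC), and in N779A between 16.8% ± 2.08 (ACCGGC) and 24.2% ± 2.22 (CCCGGA).

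Bases 3 positions from the CpG were likewise grouped in 10 classes, written with N at position 2. GNCCGGNC was the highest class in DNMT3A, at 50.1% and 49.9%, and CNCCGGNG the lowest, at 36.0% and 35.2%. GNCCGGNA (49.3% and 49.1%) and TNCCGGNA (49.3% and 48.4%) were close to the highest there. At sites with 10 reads TNCCGGNA (50.7%) lay above GNCCGGNC (49.8%) in DNMT3A replicate 1. In all DNMT3B lines but those of K777A, TNCCGGNA was the highest class, at 32.2% and 30.3% in set a, 34.4% and 27.4% in N656I, 28.0% and 26.1% in set b and 25.3% and 28.9% in N779A. In the same lines ANCCGGNT was the lowest class, at 21.4% and 20.8%, 24.0% and 18.2%, 17.5% and 16.1%, and 12.7% and 15.2%. In K777A, CNCCGGNA was highest, at 2.68% and 2.75%, close to TNCCGGNA at 2.69% ± 0.0356 (SD, n = 2), and ANCCGGNT lowest, at 1.29% and 1.21%.

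The base pair at position 2 spread the levels more than that at position 3 in the WT DNMT3B, N656I and K777A lines. In N779A, position 3 gave the larger ratio of highest to lowest class (1.99 and 1.91 against 1.73 and 1.70 at position 2), and in DNMT3A the ratios were close (1.39 and 1.42 against 1.36 and 1.35). At position 4 the ratios were between 1.10 and 1.77 and at position 5 between 1.13 and 1.25 over the 12 lines.

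**Figure D2:**
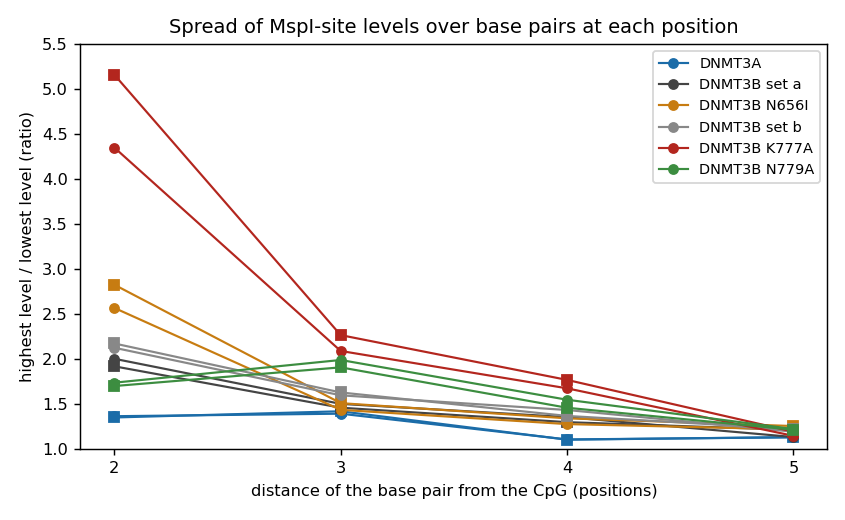
Ratio of the highest to the lowest mean level among 10 merged classes of base pairs at 2, 3, 4 or 5 positions from the CpG, per line (circles replicate 1, squares replicate 2, colours the groups). The ratio at position 2 is largest in K777A (4.35 and 5.16) and smallest in DNMT3A (1.36 and 1.35).

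With both positions, the members form merged contexts of 8 bases, 135 of which had at least 20 covered sites in every line, and 1 more, cgCCGGcg, with 9 sites in its thinnest line, was left out of ranks. In the K777A lines levels ran from 0.635% and 0.359% at aaCCGGtt to 5.80% and 6.15% at ttCCGGaa. The part of cytosines that escaped bisulfite conversion in the lowest of these levels was not tested. The same aaCCGGtt was lowest in both N656I lines (8.97% and 6.67%), both set b lines (8.39% and 7.70%) and set a replicate 1 (11.1%). In DNMT3A the lowest was ccCCGGgg in both lines (29.1% and 29.0%), and the highest were gtCCGGaa (60.1%) in replicate 1 and gtCCGGac (62.6%) in replicate 2. In N779A tcCCGGga was highest, at 30.9% and 35.1%. Across the 135 contexts the 2 lines of a group had a Pearson's r of 0.967 in DNMT3A, 0.988 in N656I, 0.955 in set b, 0.960 in K777A and 0.959 in N779A, and of 0.880 in set a. These values run across contexts, which share a library and are not independent.

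**Figure D3:**
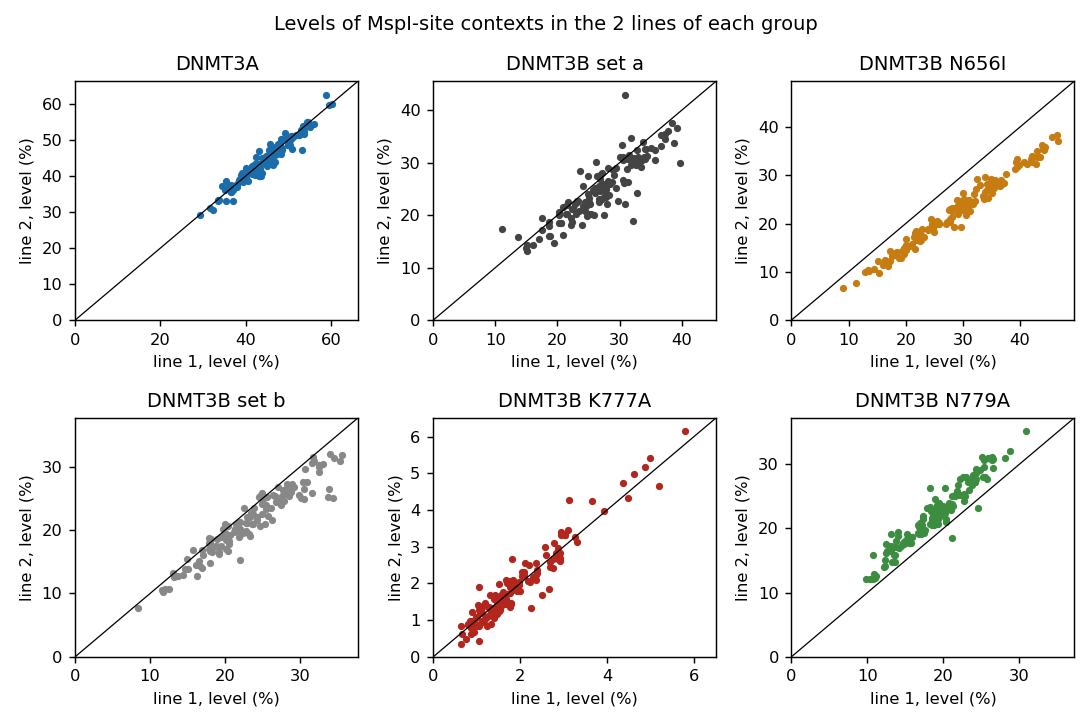
Mean level (%) of each of 135 merged contexts in replicate 1 (horizontal) and replicate 2 (vertical) of each group, with the line of equal levels; the axes differ between panels. Points of the N656I panel lie below the line over the whole range, and the scatter is widest in set a (Pearson's r = 0.880).

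The effect of these bases was compared between groups with limma, in a fit over all contexts of low-density CpG sites in which the median context of a line was set to 0, so that changes are log2 odds ratios relative to the other contexts. Against set b, 135 of 135 tested CCGG contexts fell in K777A, where 79.7% of all 2057 tested contexts changed, 43.7% up and 36% down. A quasi-binomial regression on summed reads called 134, and limma called 135 at sites covered in all lines compared (shared sites) and 40 of the 40 that could be tested with 10 reads a site. Their median change was −3.05, against 0.17 over all contexts. The largest falls were at ggCCGGcc, from 21.0% ± 1.22 to 0.636% ± 0.0274 (SD, n = 2), at agCCGGca, from 26.2% ± 2.34 to 0.933% ± 0.0446, and at cgCCGGcc, from 28.1% ± 1.23 to 1.03% ± 0.290. Their log2 changes were −4.33, −4.21 and −4.13, the 3 lowest of all contexts tested (limma, adjusted p = 2.88e-05, 2.88e-05 and 7.68e-05).

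When lines were centred within each core, so that only the outer bases counted, 88 of the 135 contexts changed in K777A, 51 up and 37 down, where 60.6% of all contexts changed (30.3% up, 30.2% down). The quasi-binomial regression called 28, and limma 40 at shared sites and 8 of 40 with 10 reads. Contexts with T and A at position 2 rose most in relation to other CCGG contexts: ttCCGGaa by 1.73, ctCCGGag by 1.72 and ctCCGGaa by 1.65 (limma, adjusted p = 0.00168 each). These were at 5.97% ± 0.241, 5.02% ± 0.215 and 5.20% ± 0.308 in K777A and at 24.0% ± 2.43, 21.0% ± 2.07 and 22.3% ± 1.96 in set b (SD, n = 2). All 10 hexamers fell in K777A, where 94.9% of the hexamers of any core changed (52.2% up, 42.6% down), by between 1.67 at TCCGGA and 4.16 at GCCGGC on the log2 scale. Within the core 9 of 10 changed, 4 up and 5 down (82.4% of all hexamers, 44.9% up and 37.5% down), with TCCGGA up by 1.46 (SE 0.06) and GCCGGC down by 1.03 (SE 0.04).

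Between DNMT3A and set a, 101 of 135 contexts differed, 3 relatively higher and 98 lower in DNMT3A, while 65.8% of all 2022 contexts differed (31.7% higher, 34.1% lower); without centring the direction flips, and 128 were higher and none lower. The quasi-binomial regression called 56 and limma 66 of 131 at shared sites, all of them lower. The median change was −0.60 (0.04 over all contexts). The lowest were ccCCGGgg (−2.08, adjusted p = 0.000989), ccCCGGgc (−1.81, adjusted p = 0.000919) and ccCCGGcg (−1.80, adjusted p = 0.00412, limma). At ccCCGGgg the level was 29.1% ± 0.0764 in DNMT3A and 33.1% ± 3.64 in set a, and at ccCCGGgc 37.1% ± 0.717 and 37.0% ± 1.31 (SD, n = 2), so that here the enzymes reached similar absolute levels. The 3 relatively higher contexts were aaCCGGtc (0.49), atCCGGtc (0.45) and aaCCGGac (0.26), and aaCCGGtc was at 45.1% ± 0.528 in DNMT3A and 14.2% ± 1.31 in set a.

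Within the core, 70 contexts differed between DNMT3A and set a, 35 in each direction (42.2% of all contexts, 20.4% higher and 21.9% lower), and atCCGGat (1.14), aaCCGGtc (1.13) and atCCGGtc (1.09) were the highest. The count within the core was 0 without DNMT3A replicate 1 or replicate 2, and 96 without set a replicate 2, while the count of 101 became 59 without DNMT3A replicate 1, 56 without DNMT3A replicate 2 and 115 (6 higher, 109 lower) without set a replicate 2. Within the core the quasi-binomial regression called 0, and limma 19 of 131 at shared sites and 30 of 125 with 10 reads. All 10 hexamers were relatively lower in DNMT3A, also without set a replicate 2 (85.3% of all hexamers differed, 44.9% higher and 40.4% lower; without centring all 10 were higher), from −0.23 at TCCGGA to −1.58 at CCCGGG. Within the core 8 of 10 differed, 5 higher and 3 lower (76.5% of all hexamers, 44.1% higher and 32.4% lower), among them CCCGGG at −0.85 (SE 0.03) and TCCGGA at 0.50 (SE 0.04).

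In N656I, 93 of 135 contexts differed from set a, 92 relatively higher and 1 lower (47.4% of all contexts differed, 26.4% higher and 21.1% lower), but without centring 4 were lower and none higher. The quasi-binomial regression called 5 and limma 45 of 133 at shared sites, all of them higher, and 61 of 126 with 10 reads were called, 60 of them higher. The median change was 0.55, against 0.02 over all contexts. The highest were agCCGGcg (1.37), cgCCGGaa (1.18) and ggCCGGca (1.14), the last of which was at 38.7% ± 6.88 in N656I and 30.5% ± 0.0201 in set a (SD, n = 2; limma, adjusted p = 0.00331). The 1 lower context was atCCGGag, at 12.5% ± 2.72 and 22.1% ± 0.519 (−0.39, adjusted p = 0.0323). The count was 0 without either N656I line, in which the remaining line had no replicate, and 93 (91 higher, 2 lower) without set a replicate 2.

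Of the hexamers 9 of 10 differed in N656I, and 9 without set a replicate 2, with 8 higher and TCCGGA lower in the full comparison (83.1% of all hexamers, 35.3% higher and 47.8% lower; without centring 1 differed, lower). GCCGGC had the largest change, 0.93 (SE 0.05), followed by CCCGGC at 0.83 (SE 0.05), and ACCGGT did not pass the test at 0.07 (SE 0.06). Within the core 32 contexts differed, 13 higher and 19 lower (35.7% of all contexts, 17.7% higher and 18% lower), with ctCCGGag (−1.05), atCCGGag (−0.99) and ctCCGGaa (−0.91) as the lowest, all with T before and A after the CCGG. By hexamer, within the core, 7 of 10 differed, 3 higher and 4 lower (74.3% of all hexamers, 41.9% higher and 32.4% lower), from TCCGGA at −0.69 (SE 0.05) to GCCGGC at 0.50 (SE 0.05). The context count within the core was 0 without either N656I line and 28 without set a replicate 2, and it was also 0 by the quasi-binomial regression and at shared sites and 7 of 126 with 10 reads.

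In N779A, 69 of 135 contexts differed from set b, 36 relatively higher and 33 lower (52.7% of all contexts, 23.8% higher and 28.9% lower), with a median change of 0.04 (0.01 over all contexts); without centring 4 were higher and 25 lower. Most of these calls were lost under other settings, with 20 at sites with 5 reads, 3 of 107 tested with 10 reads, 1 of 134 at shared sites and 5 by the quasi-binomial regression. Contexts with G and C at position 2 were the lowest: agCCGGcg (−1.31), cgCCGGcc (−1.04) and agCCGGcc (−0.97), of which agCCGGcc was at 11.9% ± 1.49 in N779A and 22.6% ± 2.83 in set b (SD, n = 2; limma, adjusted p = 0.00309). Those with A and T there were the highest: taCCGGta (0.81), aaCCGGtt (0.67) and caCCGGta (0.65), and taCCGGta was at 25.0% ± 3.91 and 17.4% ± 1.26. The count was 37 without N779A replicate 1 or set b replicate 1, 44 without N779A replicate 2 and 46 without set b replicate 2.

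Of the hexamers 7 of 10 differed in N779A, 3 higher and 4 lower (79.4% of all hexamers, 33.8% higher and 45.6% lower; without centring 2 were lower and none higher). The quasi-binomial regression called 2, both lower. GCCGGC had the largest change, −0.90 (SE 0.04), and ACCGGT the largest in the other direction, 0.38 (SE 0.05). Within the core, 48 contexts differed, 24 in each direction (24.7% of all contexts, 11.4% higher and 13.3% lower), but 0 without any 1 of the 4 lines, by the quasi-binomial regression, at shared sites and with 5 or 10 reads. By hexamer, 8 of 10 differed within the core, 4 in each direction (66.9% of all hexamers, 33.1% higher and 33.8% lower). Between the WT sets, 0 of 135 contexts differed in limma (0% of all contexts), with 2 at an unadjusted p under 0.05 and 0 by the quasi-binomial regression, and 0 within the core, with 1 at an unadjusted p under 0.05. Without set a replicate 2 both counts were again 0. No hexamer differed between the sets, with or without that line (1.47% of all hexamers did; without centring 4 of 10 were lower in set b), with 0 at an unadjusted p under 0.05 and 0 by the quasi-binomial regression.

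**Figure D4:**
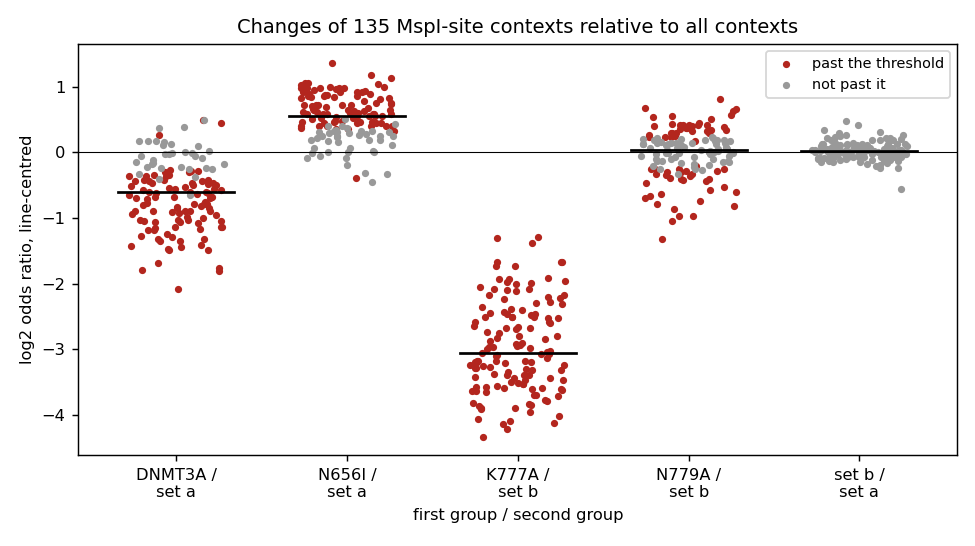
Line-centred log2 odds ratio of each of 135 CCGG contexts in the 5 comparisons, with contexts past an adjusted p of 0.05 in red, others in grey, and the median as a bar. All points of K777A against set b lie under 0 (median −3.05), and those of set b against set a lie around 0 with none in red.

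The surroundings of a member moved its level less than the bases at positions 2 and 3 did. Over 1 to 5 CpG sites in the window, levels ran from 42.0% to 44.6% in DNMT3A replicate 1, from 27.0% to 28.5% in set a replicate 1 and from 1.96% to 2.10% in K777A replicate 1. Members at the limit of 5 sites were at 42.0% and 42.3% in DNMT3A and at 2.10% and 2.07% in K777A, and CCGG sites with 6, just outside the rule, at 40.0% and 39.4% and at 1.86% and 2.01%. The nearest other recognition sequence of MspI, BfaI or MseI lay under 30 bp away for 39.7% of members, and in K777A levels were between 1.90% and 2.14% in all classes of this distance in both lines. In DNMT3A they were between 39.7% and 44.6% in both lines. The first bases of both reads, which hold the cut end, were clipped by the authors, and the counts do not keep positions in reads, so the part of cut ends in these levels was not tested.

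Members in promoters, within 1 kb of a transcript start of a protein-coding gene (5.19% of members), were lower than those in introns (42.3% of members) in all 12 lines. The levels were 34.7% and 34.9% against 45.8% and 45.6% in DNMT3A, 22.7% and 21.6% against 29.2% and 27.0% in set a, 23.4% and 18.2% against 30.7% and 24.0% in N656I, 19.8% and 18.7% against 25.2% and 23.6% in set b, 1.89% and 1.76% against 2.14% and 2.19% in K777A, and 16.4% and 18.6% against 20.3% and 23.9% in N779A. Soft-masked repeats, which hold 29.3% of members, were at 41.8% and 41.1% against 44.3% and 44.2% outside repeats in DNMT3A, and at 2.08% and 2.06% against 2.04% and 2.08% in K777A. Between autosomes the levels of DNMT3A replicate 1 ran from 42.9% to 44.9% and those of K777A replicate 1 from 1.93% to 2.21%.

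**Figure D5:**
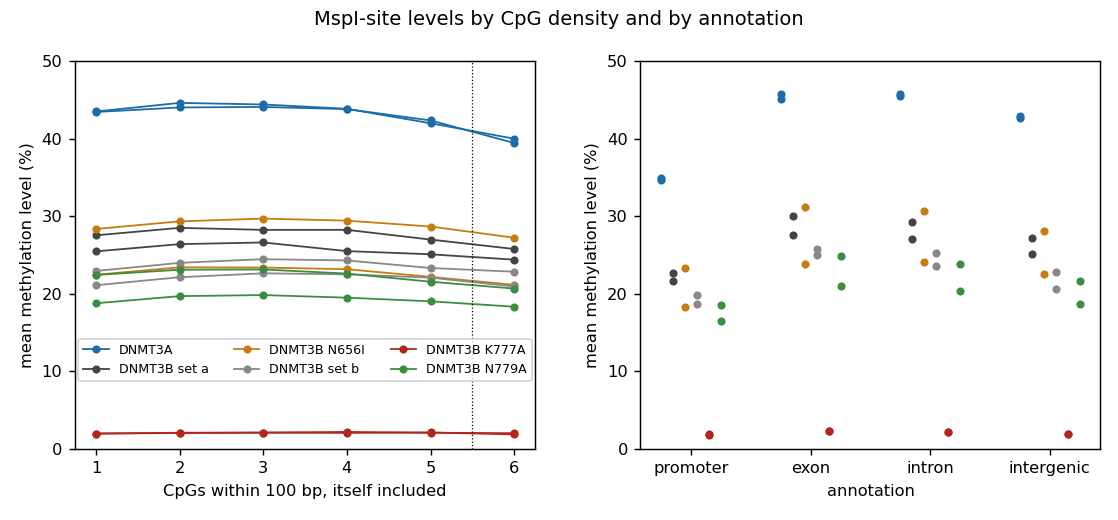
Mean methylation level (%) of covered members per line by the number of CpG sites within 100 bp, itself included (left; the dotted line marks the limit of the rule, and 6 lies outside it), and by annotation (right). Promoter members lie under intron members in every line, and K777A stays between 1.76% and 2.35% in every class shown within the rule.

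At single sites, the values rest on few reads, and intervals (Wilson, 95%) cover counting error only, since amplified reads were counted without molecular identifiers and may repeat a molecule. Site 1 was nearly unmethylated in every group although ACCGGT sites averaged 39.0% in DNMT3A, with 5 of 214 reads methylated in DNMT3A (2.34%, 1.00% to 5.35%), 0 of 138 in set a (upper bound 2.71%), 3 of 216 in N656I, 2 of 170 in set b, 1 of 185 in K777A, and 1 methylated read in N779A. Its depth was 56 to 118 reads, far above that of an average member. In DNMT3A replicate 1 it had 102 reads, against 3.53 per covered member. Whether reads from similar sequences elsewhere were placed at site 1 was not tested, so it may not stand for ordinary ACCGGT sites. Site 3 showed 45 of 84 methylated reads in DNMT3A (53.6%, 43.0% to 63.9%), 38 of 97 in set a, 16 of 22 in N656I, 17 of 64 in N779A and 1 of 66 in K777A (1.52%, 0.268% to 8.10%). In set b it was methylated in 9 of 9 reads of replicate 1 and in 0 of 12 of replicate 2, so lines of a group can differ at 1 site while their averages are close.

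Site 2 was methylated in 10 of 43 reads in set a, 12 of 39 in set b, 8 of 67 in DNMT3A, 7 of 72 in N656I, 7 of 40 in N779A and 2 of 32 in K777A. Site 4, a TCCGGA, was methylated in 35 of 54 reads in DNMT3A (64.8%, 51.5% to 76.2%), 3 of 50 in set a, 11 of 81 in N656I, 7 of 55 in N779A and 4 of 74 in K777A, and in set b in 7 of 10 and 2 of 35 reads of the 2 lines.

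Site 5 was chosen for its difference between set b (9 of 17 and 13 of 22 reads) and K777A (0 of 11 and 0 of 24), so that this difference is a description. In the lines not used for the choice it was methylated in 51 of 82 reads of DNMT3A, 20 of 44 of set a, 55 of 101 of N656I and 6 of 14 of N779A. Site 6, chosen in the same way, was methylated in 7 of 13 and 9 of 13 reads of set b and in 2 of 12 and 2 of 19 of K777A. In the other lines it was methylated in 10 of 30 and 0 of 14 reads of set a, 3 of 16 and 12 of 14 of DNMT3A, 20 of 36 of N656I and 4 of 5 of N779A, so that the WT sets differed there as well. Site 7 was chosen for its difference between DNMT3A (8 of 13 and 17 of 17 reads) and set a (0 of 14 and 0 of 12), and had 1 of 11 methylated reads in N656I, 2 of 9 in set b, 0 of 9 in K777A and 6 of 7 in N779A. Site 8, in the coding exon of Mief2 and chosen like site 7, was at 14 of 14 and 11 of 13 reads in DNMT3A and 9 of 32 and 0 of 27 in set a. It was at 17 of 30 in N656I, 2 of 13 in set b, 0 of 11 in K777A and 0 of 1 in N779A.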

How the data were processed

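eRRBS read pairs were clipped, filtered and trimmed by the authors (Cutadapt; 1.12 per the submitters' processing notes), aligned with Bismark 0.18.1 and Bowtie 1.2 to mm10 (GRCm38), and counted with both strands collapsed. The deposited values are raw counts of methylated reads and of all reads per CpG site and line, not normalized or pooled; all 21867550 sites read CG in GRCm38. No per-sample column was without a sample.

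Levels were means of methylated over all reads at sites with at least 10 reads, or at every covered site for hexamers, contexts and surroundings. Contexts were merged with their reverse complements, and log2 odds of those with at least 20 covered sites per line entered limma 3.58.1 (R 4.3.3; moderated variances with a trend); 0.5 over the site number was added to avoid zeros. Benjamini-Hochberg adjustment ran over all low-density contexts or hexamers, at 0.05. Each line was centred on its median, or on the median of each core. Levels of lines were compared with an exact permutation test. As the fit pools the spread over contexts with 2 lines per group, p-values say little of new lines; the 2 lines of a group were derived independently.

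Named contexts were the 3 largest changes in each direction past the threshold, and named sites were picked by depth and by separated differences, leaving out chromosome 18 and sites with over 200 reads. Members, lists and tests were chosen with earlier results of these data known. Steps were tested on simulated data. Alternatives were other read and site minimums, summed reads, shared sites, every density, no sites above the 99.9th percentile of depth, a quasi-binomial regression, no centring, 1 fit over all 12 lines, other WT lines, leaving out each line, and a replicate block. Centring hexamers within the core was added after seeing the data. Python 3.11.15, numpy 2.4.6, pandas 2.3.3, scipy 1.17.1 and matplotlib 3.10.9 were used.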

Additional observations from a re-analysis of the deposited data

Results flagged for a closer look

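CCGG as a whole and each of the 10 hexamers were screened for comparisons in which both lines of a group lay on one side and both lines of the other on the opposite side. No test was made of the opposite signs themselves. CCGG lay below the other low-density sites in both K777A lines and above them in both set b lines, a difference of −2.84 on the log2 odds scale. Relative to all members of the same line, CCCGGG lay below in both DNMT3A lines and above in both set a lines (difference −0.81), and likewise below in K777A and above in set b (−0.87). TCCGGA lay above all members in DNMT3A and below in set a (0.54), although set a replicate 1 lay close to 0 at −0.012 and, at sites with 10 reads, TCCGGA in set a replicate 2 was at 26.0% against 25.9% for all members. It lay above in K777A and below in set b (1.24), and above in N779A and below in set b (0.24). GCCGGC lay below all members in both K777A and both N779A lines and above them in set b, with differences of −1.25 and −0.79. CCCGGC lay below in DNMT3A, at only −0.016 and −0.028, and above in set a (−0.27), and below in K777A and above in set b (−0.49). ACCGGC lay above in DNMT3A, by only 0.047 and 0.036, and below in set a (0.26), but at sites with 10 reads it was below in DNMT3A replicate 2 (43.2% against 44.0% for all members). CCCGGA lay below in N656I and above in set a (−0.19). ACCGGA lay above in K777A, by only 0.044 and 0.099, and below in set b (0.63), but at sites with 10 reads it was below in K777A replicate 1 (2.07% against 2.31%). GCCGGA lay above in K777A (0.55) and N779A (0.085) and below in set b, whose lines were close to 0 at −0.016 and −0.0031.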

How the results depend on the processing

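The direction of the level and of the relative level held under every alternative run for DNMT3A against set a (10.9 to 21.2 points and −0.76 to −0.59) and K777A against set b (−25.3 to −16.3 points and −3.05 to −2.33). Leaving out 1 line gave 15.2 to 18.2 and −21.7 to −19.8 points. The level of N656I against set a changed sign with 20 reads per site (0.233), with the other WT lines (4.24), with all 4 WT lines (1.98) and between lines left out (−3.71 to 3.13). That of N779A (−2.10) changed sign at shared sites (2.53), and was −3.45 at every density, −6.63 and −4.37 with the other or all 4 WT lines and −3.65 to −0.544 without 1 line. The relative level of N779A became 0.11 with 20 reads, 0.0086 with every covered site, 0.015 with summed reads, 0.37 at shared sites and 0.083 at every density, and −0.062 to 0.040 without 1 line; that of set b against set a became 0.017 with every covered site, −0.043 and −0.026 with 5 and 20 reads and −0.44 at shared sites, where its level was −11.2. The cause was not tested.

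Counts of contexts moved more. For DNMT3A against set a they were 66 at sites covered in all lines compared, 56 in the quasi-binomial regression and 56 to 115 without 1 line (59 without DNMT3A replicate 1, 56 without replicate 2), and within the core 30 with 10 reads, 19 at shared sites, 0 in the quasi-binomial regression and 0 to 96 without 1 line. For N656I they were 61 with 10 reads, 45 at shared sites, 5 in the quasi-binomial regression, 4 without centring and 0 to 107 without 1 line. Within the core N656I gave 17 with 5 reads, 7 with 10 reads, 13 with summed reads, 0 at shared sites, 0 in the quasi-binomial regression, 64 with all 12 lines in 1 fit, 51 and 59 with the other WT lines and all 4 WT lines, and 0 to 30 without 1 line. K777A gave 40 of the 40 contexts that could be tested with 10 reads, and within the core 8 of these 40, 40 at shared sites, 28 in the quasi-binomial regression and 71 to 79 without 1 line. N779A gave 20 with 5 reads, 3 with 10 reads, 1 at shared sites, 5 in the quasi-binomial regression, 29 without centring, 37 with the other WT lines and 37 to 46 without 1 line. Within the core N779A gave 0 with 5 reads, 10 reads, shared sites, the quasi-binomial regression, the other WT lines and each line left out. Hexamer counts were 1 (N656I) and 2 (N779A) without centring, 2 in the quasi-binomial regression of N779A, and 4 for set b against set a without centring. With 10 reads, 125, 126 and 107 contexts could be tested for DNMT3A, N656I and N779A. Fewer sites enter at higher read minimums and at shared sites, and a group with a line left out has 1 sample, assumed to vary like the other group.

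The replicate numbers were not shown to pair lines: deviations of same-numbered lines correlated at −0.138 to 0.0938 over 135 contexts. With the replicate block the contexts called within the core fell to 10 for N656I and 23 for N779A, and the other counts stayed within 1.5 times, with 95 contexts for DNMT3A, 83 for N656I, 135 for K777A, 58 for N779A and 0 for set b against set a.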
